A study of Mus musculus with 16 samples.

Results

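The genes described here are the nuclear-encoded subunits of the mitochondrial respiratory chain and ATP synthase in immune cells taken from mouse melanomas. They were chosen by name alone: every gene expression feature whose symbol starts with Nduf, Uqcr, Atp5, Cox4, Cox5, Cox6, Cox7 or Cox8 was taken, except Cox6a2 and pseudogene symbols containing -ps. The rule took 88 of the 32285 genes counted. By role these were 7 core and 29 accessory subunits of complex I, 3 core and 5 accessory subunits of complex III, 11 subunits of complex IV (Ndufa4 included), 17 subunits of ATP synthase, 8 complex I assembly factors, the supercomplex factor Cox7a2l, and 7 tissue-restricted isoforms. The ATP synthase subunits were 5 of the F1 head, the 3 genes for the c-ring, 4 of the peripheral stalk and 5 small membrane subunits. Subunits with other names, such as cytochrome c1 (Cyc1) of complex III, fall outside the rule, so counts by role cover the members only.

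C57BL/6J mice carried subcutaneous tumours grown from 1000000 cells of the B16 melanoma clone Bro4.1, either B2m-null or control. The B2m-null tumours lack beta-2 microglobulin, the light chain of MHC class I. All mice received antibody into the peritoneum on days 6, 9 and 12, at 100 µg a dose, either an agonist of CD40 (a costimulatory receptor of antigen-presenting cells) or a rat IgG2a isotype antibody, and tumours were taken on day 14. CD45+ cells were enriched on magnetic beads, each mouse was marked with its own hashtag antibody, and the mice of a pool were run together on a droplet 3' sequencing lane. The 4 groups were control tumours with isotype (5 mice, in pools of 3 and 2), control tumours with CD40 agonist (2 mice of 1 pool, run on 2 technical lanes), B2m-null tumours with isotype (5 mice, in pools of 3 and 2) and B2m-null tumours with CD40 agonist (4 mice, in pools of 2 and 2). The sample labels write the genotype as that of the mouse strain, whereas the study's design text places the loss of B2m in the implanted cells. In cells gated as melanoma, B2m was 1.46 to 4.60 UMIs per 10000 in the B2m-null lanes (3 to 51 cells a lane) and 12.0 to 21.0 in the control lanes (11 to 44 cells). The control tumours with CD40 agonist came from 1 pool, so for every comparison with that group the treatment and the pool cannot be told apart. In every comparison, also those without that group, the p-values rest on the spread between mice within groups, shared over the 4 groups. They hold no pool term, so mice of the same pool are treated as independent.

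Complexes I, III and IV pass electrons from NADH to oxygen and pump protons across the inner mitochondrial membrane, and ATP synthase (complex V) uses the return of those protons to make ATP. A few subunits of each complex carry the redox centres or catalytic sites, and many small accessory subunits surround them. The mitochondrial genome encodes a minority of the subunits, so the nuclear genes described here supply most of the chain. In activated macrophages, dendritic cells and T cells the balance between respiration and glycolysis is known to shift with the state of the cell.

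The promoters of these genes are known for sites of NRF1 and of ETS-family factors such as GABP, and 5 of them are shown because they belong to members on which the results below turn. Each is the reference sequence of RefSeq (GRCm38.p6) from 80 bases before to 10 bases after the transcription start, 5′ to 3′ on the gene's strand, with matches to the NRF1 motif GCGCATGC or the ETS motif CCGGAAG, on either strand, in capitals.
Atp5k (subunit e of ATP synthase, chr5:108434390-108434479, minus strand): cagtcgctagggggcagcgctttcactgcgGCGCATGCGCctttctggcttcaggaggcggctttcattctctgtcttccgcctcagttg
Uqcr11 (an accessory subunit of complex III, chr10:80406812-80406901, minus strand): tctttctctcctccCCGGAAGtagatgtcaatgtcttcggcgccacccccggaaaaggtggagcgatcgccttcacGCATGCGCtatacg
Cox8a (a small subunit of complex IV, chr19:7217607-7217696, minus strand): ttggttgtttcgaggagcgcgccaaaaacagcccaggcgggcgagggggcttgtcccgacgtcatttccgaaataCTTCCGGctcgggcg
Cox6b1 (a complex IV subunit on the intermembrane side, chr7:30626105-30626194, minus strand): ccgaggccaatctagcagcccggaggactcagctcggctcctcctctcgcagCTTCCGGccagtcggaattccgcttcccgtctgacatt
Ndufs3 (a core subunit of complex I, chr2:90904712-90904801, minus strand): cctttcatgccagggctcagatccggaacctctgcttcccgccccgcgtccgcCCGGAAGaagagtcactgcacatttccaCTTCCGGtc
Atp5k and Uqcr11 hold the NRF1 letters in this stretch, Uqcr11 also holds the ETS letters, and Cox8a, Cox6b1 and Ndufs3 hold only the ETS letters there. RefSeq windows of 300 bases, 250 before and 50 after the start, were found for 72 of the 88 members (77 windows). Of these windows 14.3% held the NRF1 motif, against 2.71% of all 32851 windows, and 22.1% against 8.86% held the ETS motif. The YY1 motif AAGATGGC stood in 13% against 2.75%, and any of the 3 in 41.6% against 13.3%; overlapping matches were counted once a window. A match is a description of the letters and not of a bound site.

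The 8 lanes held 116552 barcodes and 45985739 to 99264875 UMIs each, with median depths of 1715 to 4225 UMIs per barcode, the 2 control CD40 lanes being the shallowest. Pairs of lanes shared 41 to 92 barcodes, at most 0.623% of the smaller lane. Of the 93111 cells that passed quality and were no hashtag doublets, 58074 fell in a marker gate, and 47497 of these were assigned to a mouse. The 4 classes compared were monocytes/macrophages (31032 cells of 16 mice), conventional dendritic cells (cDC, 1967 cells of 16 mice), CD8 T cells (10617 cells of 16 mice) and NK cells (1788 cells of 15 mice). Of the 88 members, 85, 76, 81 and 76 passed the filter on low counts in these classes, in this order. The classes were taken from the same mice and libraries, so their comparisons are not independent of each other. In counts summed over cells, more cells with the transcript and more transcript per cell cannot be told apart.

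In monocytes/macrophages the members together took a larger share of the transcriptome in the CD40 groups than in the isotype groups, more so in control tumours. The summed level of the 88 genes was 234.8, 219.9, 225.6, 228.4 and 220.7 UMIs per 10000 in the 5 control isotype mice, and 294.2 and 309.6 in the 2 control CD40 mice. In B2m-null tumours it was 234.2, 219.1, 229.8, 230.0 and 232.3 under isotype, and 259.7, 272.7, 242.0 and 243.9 under CD40 agonist. Within each tumour genotype every CD40 mouse lay above every isotype mouse, and the isotype groups of the genotypes overlapped. The log2 ratio of the group means was 0.42 in control tumours and 0.15 in B2m-null tumours. Between genotypes it was 0.02 under isotype and -0.25 under CD40 agonist.

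The mean of each complex was higher under CD40 agonist in both tumour genotypes, with overlap between mice for complexes I and III in B2m-null tumours. These sums follow the symbols, so Ndufa4 is in that of complex I and the tissue-restricted isoforms are included. Complex III, which hands electrons from ubiquinol to cytochrome c, averaged 22.6 UMIs per 10000 under isotype and 35.3 under CD40 agonist in the monocytes/macrophages of control tumours, and 24.8 and 26.9 in those of B2m-null tumours. Complex IV, the cytochrome oxidase, averaged 58.1 and 83.0 in control tumours and 57.4 and 68.7 in B2m-null tumours. Complex V averaged 70.6 and 90.1, then 72.6 and 78.8, and complex I averaged 70.8 and 88.3, then 70.2 and 75.8. The 2 technical lanes of the control CD40 pool, which held the same mice, gave 292.4 and 321.8 for the summed level, and the 2 lanes of each other group, which held pools of different mice, gave 224.2 and 225.2 (control isotype), 230.2 and 230.9 (B2m-null isotype) and 268.7 and 243.0 (B2m-null CD40). The control CD40 monocytes/macrophages also held fewer monocytes, 4.66% to 8.72% of the class a mouse against 13.3% to 41.9% under control isotype. Among macrophages alone the group means were 230.0 and 303.4 in control tumours and 230.9 and 256.2 in B2m-null tumours. The 5 melanoma markers summed to 0.13 to 0.56 UMIs per 10000 in the class in every mouse.

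**Figure D1:**
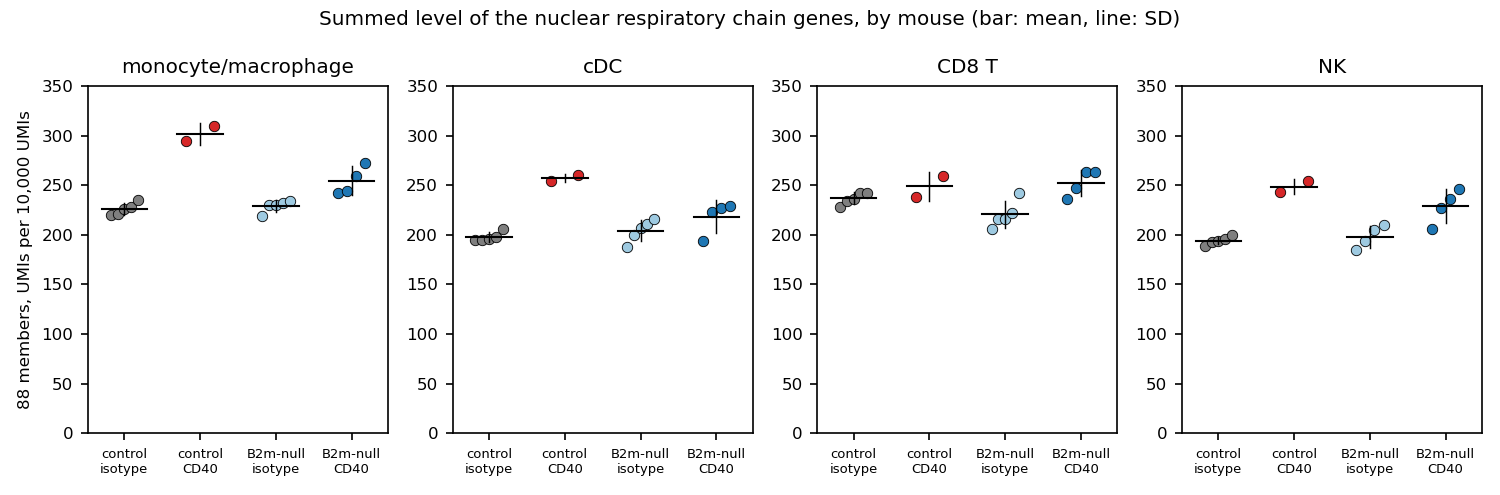
Summed level of the 88 respiratory chain genes (UMIs per 10000 UMIs, y axis from 0) in each mouse (points) of the 4 groups, in monocytes/macrophages, cDC, CD8 T cells and NK cells; bars are group means and lines the SD over mice. In monocytes/macrophages the CD40 mice lie above the isotype mice in both tumour genotypes, at 294.2 and 309.6 in control tumours and 242.0 to 272.7 in B2m-null tumours.

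In control tumours the small accessory subunits rose most under CD40 agonist in monocytes/macrophages. Most core subunits of complexes I and III and most subunits of the F1 head did not pass the test. Of 85 members tested, 50 rose and 2 fell (edgeR quasi-likelihood test, Benjamini-Hochberg adjusted p under 0.05 over all genes), against 10.6% and 9.68% of the 12078 genes tested that were called higher and lower. The median change was 0.43 on the log2 scale for the members and -0.01 for all genes. A fit without 1 of the 2 CD40 mice (mouse 2) gave 34 calls in place of 52. With the libraries scaled by total counts alone, the median of all genes moved to -0.16 and that of the members to 0.29, with 44 members higher and 10 lower, and the share of higher among all calls was 25.5% in place of 52.3%.

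All 5 small membrane subunits of ATP synthase, among them those that hold its dimers together, rose in the monocytes/macrophages of control tumours, with a median of 1.18. Atp5k, subunit e, was 1.02, 0.861, 0.842, 0.977 and 0.947 UMIs per 10000 in the isotype mice and 2.04 and 2.14 in the CD40 mice (log2 change 1.31, SE 0.12, adjusted p = 1.76e-06). The CD40 values were both above every isotype value, without overlap. Atp5md, the DAPIT subunit, was 1.83 to 2.12 under isotype and 4.08 and 4.22 under CD40 agonist (1.21, SE 0.10, adjusted p = 4.28e-07). Atp5mpl, a small proteolipid of the same membrane sector, was 2.68 to 3.28 and then 6.04 and 6.25 (1.18, SE 0.09, adjusted p = 2.71e-07). Neither group pair overlapped. The other 2, Atp5l (subunit g) and Atp5j2 (subunit f), rose by 0.98 and 0.81.

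The accessory subunits of complex III moved in the same way in the monocytes/macrophages of control tumours, all 5 rising with a median of 0.99. None of the 3 core subunits of complex III among the members passed the test. Uqcr11 was 2.81, 2.56, 2.48, 3.02 and 2.86 UMIs per 10000 under isotype and 5.81 and 6.00 under CD40 agonist (log2 change 1.24, SE 0.09, adjusted p = 1.61e-07). The CD40 mice stood well clear of the isotype mice. Uqcrh (the hinge protein), Uqcr10, Uqcrq and Uqcrb rose by 1.01, 0.99, 0.78 and 0.67. For the core subunits Uqcrc1, Uqcrc2 and the Rieske iron-sulphur protein Uqcrfs1 the estimates were -0.30, -0.16 and -0.16. With total-count scaling all 3 were called lower.

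Of the 29 accessory subunits of complex I, 21 rose in the monocytes/macrophages of control tumours (median 0.48), and of the 7 core subunits 1 rose and 1 fell (median -0.08). Ndufa3, an accessory subunit, was 0.703 to 0.842 UMIs per 10000 in the isotype mice and 1.56 and 1.69 in the CD40 mice (log2 change 1.20, SE 0.09, adjusted p = 1.95e-07). Its groups did not overlap. Ndufa1, Ndufa2, Ndufa5 and Ndufc1 rose by 1.04 to 1.06. The core subunit that fell was Ndufs1, which carries iron-sulphur clusters, at 0.416 to 0.469 under isotype and 0.317 and 0.329 under CD40 agonist (-0.32, SE 0.10, adjusted p = 0.0384). Both CD40 mice lay below all isotype mice. The core subunit that rose was Ndufs7 (0.29). Among the assembly factors, 3 of 8 rose and Ndufaf7, a methyltransferase, fell (-0.72, SE 0.15, adjusted p = 0.00326).

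Of the 11 complex IV subunits, 9 rose in the monocytes/macrophages of control tumours, with a median of 0.68. Cox7c was 4.29, 4.56, 4.54, 4.87 and 4.55 UMIs per 10000 under isotype and 8.56 and 9.03 under CD40 agonist, a log2 change of 1.09. Cox8a was 8.08 to 8.94 and then 13.2 and 15.4 (0.87, SE 0.13, adjusted p = 0.000183). In both genes the CD40 mice lay above all isotype mice. Cox4i1 and Cox5a, subunits close to the catalytic core, rose by 0.33 and 0.31, and Cox7b and Ndufa4 had estimates of 0.38 and 0.08 that did not pass the test. In the F1 head of ATP synthase only Atp5e (epsilon, 1.11) rose, and Atp5b, the catalytic beta subunit, was 4.13 to 5.09 under isotype and 3.06 and 3.13 under CD40 agonist without passing the test (-0.42 by TMM scaling), while total-count scaling called it lower (-0.56). The c-ring gene Atp5g3 rose (0.33), and the stalk subunits Atp5h and Atp5j rose by 0.58 and 0.36.

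In B2m-null tumours the rise under CD40 agonist in monocytes/macrophages took in most core subunits of complexes I and III and of the F1 head as well. Of 85 members tested 63 rose and 1 fell, against 18.1% and 18.8% of all genes tested, with medians of 0.37 for the members and -0.02 for all genes. Total-count scaling moved the median of all genes to -0.24 and that of the members to 0.16, with 33 higher and 6 lower, and the share of higher among all calls was 20.3% in place of 49.1%. With the pool of mice as the unit in place of the mouse, 36 of the members were called in this comparison. The same fit gave 36 in control tumours, where the CD40 arm is then 1 sample that is assumed to vary like the pools of the other groups; this holds for every count with pools as the unit that uses that arm.

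Among the core subunits of complex I, 6 of 7 rose in the monocytes/macrophages of B2m-null tumours (median 0.57). Ndufs3 was 0.873, 0.745, 0.921, 0.967 and 0.992 UMIs per 10000 in the isotype mice and 1.18, 1.35, 1.23 and 1.25 in the CD40 mice (log2 change 0.68, SE 0.10, adjusted p = 7.22e-05). All 4 CD40 mice stood above all 5 isotype mice. Ndufv1, which binds NADH, rose by 0.68, Ndufv2 by 0.66 and Ndufs8 by 0.57. Ndufs1 again fell, from 0.482 to 0.670 under isotype to 0.356 to 0.386 under CD40 agonist (-0.32, SE 0.08, adjusted p = 0.00690), with no overlap. Of the 29 accessory subunits of complex I 23 rose, led by Ndufa12 (0.74, SE 0.13, adjusted p = 0.000406) and Ndufs4 (0.69, SE 0.11, adjusted p = 0.000146).

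In the monocytes/macrophages of B2m-null tumours all 3 core and 4 of 5 accessory subunits of complex III among the members rose, with medians of 0.50 and 0.32. Of the complex IV subunits 10 of 11 rose, with a median of 0.44. Cox8a was 8.09, 6.35, 7.20, 8.48 and 8.80 UMIs per 10000 under isotype and 10.0, 11.2, 11.3 and 10.9 under CD40 agonist (log2 change 0.70, SE 0.11, adjusted p = 0.000136). All 4 CD40 mice were above the isotype mice. Ndufa4, the remaining complex IV subunit, had an estimate of -0.18.

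Of ATP synthase, 4 of 5 subunits of the F1 head, all 3 c-ring genes and all 4 stalk subunits rose in the monocytes/macrophages of B2m-null tumours, with medians of 0.64, 0.48 and 0.35. Atp5b was 3.47, 2.47 and 3.10 UMIs per 10000 in the isotype mice of the first pool, 4.19 and 4.55 in those of the second, and 4.46, 5.27, 4.60 and 4.86 under CD40 agonist, a log2 change of 0.64. The mice of the second isotype pool lay near the CD40 mice and overlapped them, and those of the first lay below. A fit without the first isotype pool gave 51 member calls in place of 64. The c-ring genes Atp5g1, Atp5g2 and Atp5g3, which encode the same mature c subunit, rose by 0.69, 0.48 and 0.25. Of the membrane subunits 2 of 5 rose (median 0.16), Atp5l by 0.31 and Atp5j2 by 0.29, whereas total-count scaling called none higher and 1 lower and turned their median to -0.05.

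**Figure D2:**
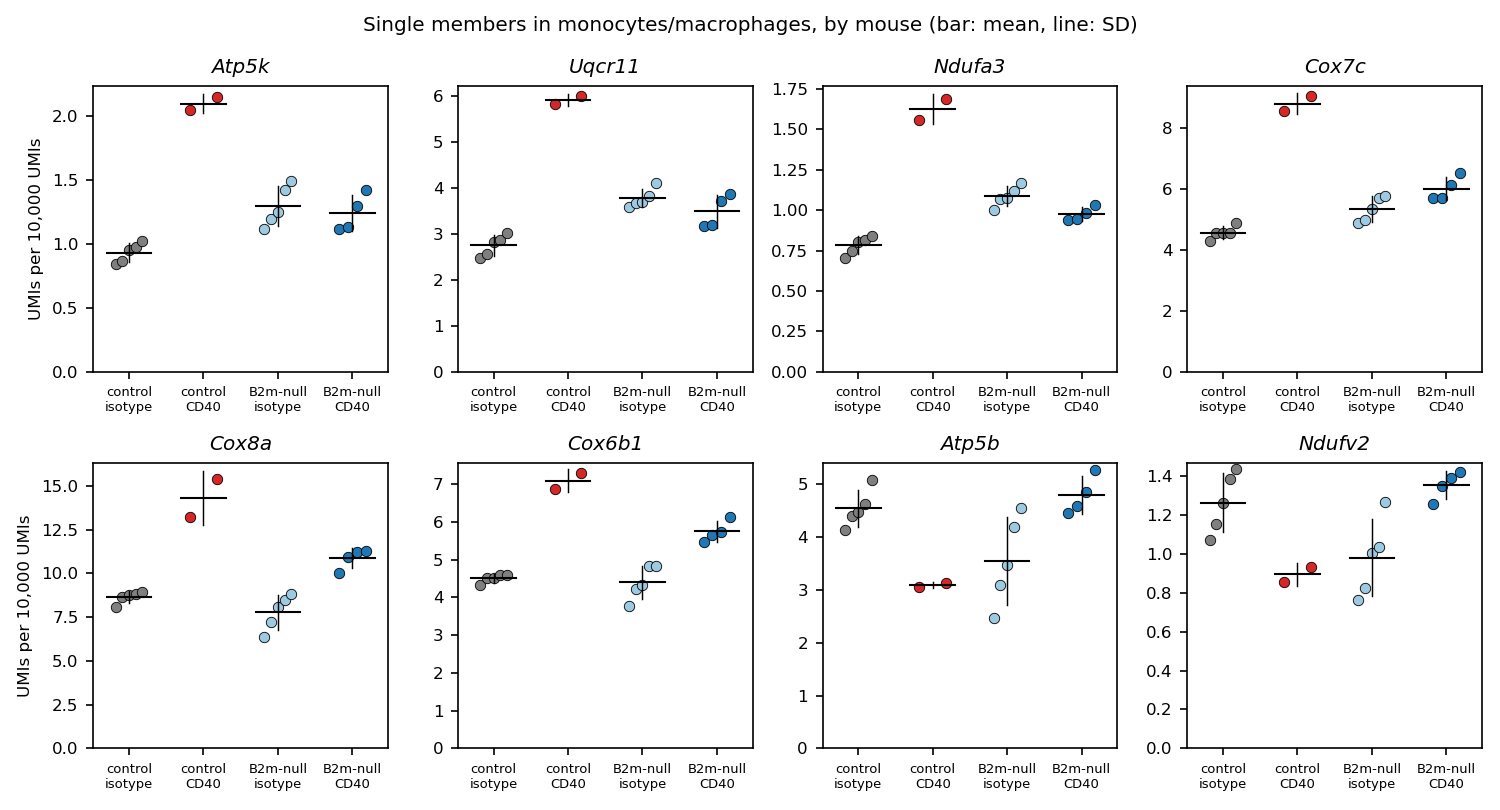
Levels of 8 members in monocytes/macrophages (UMIs per 10000 UMIs, y axes from 0), 1 point a mouse, in the 4 groups, with the group mean as a bar and the SD over mice as a line. Atp5k, Uqcr11 and Ndufa3 stand apart in the 2 control CD40 mice, Cox7c, Cox8a and Cox6b1 are higher under CD40 agonist in both tumour genotypes, and Atp5b and Ndufv2 are lowest in the control CD40 mice and in the first B2m-null isotype pool.

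The CD40 comparisons of control and B2m-null tumours share no mice, but they come from the same fit, with the same filter and estimate of the spread. Their calls are set against each other here and are not independent. In monocytes/macrophages 39 members rose in both, which was 78% of the 50 in control tumours and 61.9% of the 63 in B2m-null tumours. Of all tested members 58.8% rose in control and 74.1% in B2m-null tumours, so the shares in common were near those of all members. Over all genes tested 541 rose in both, which was 42.1% of those in control and 24.7% of those in B2m-null tumours, where 10.6% and 18.1% rose. Over all genes 490 fell in both, and 166 of 12078 changed in opposite directions. Among the members Ndufs1 fell in both, and none changed in opposite directions. These shared calls depend on the scaling: with total-count scaling 11 members rose in both, Ndufs1 and Ndufaf7 fell in both, 7 fell in control and rose in B2m-null tumours (among them Atp5b, Ndufv2 and Uqcrc1), and Atp5mpl and Cox7a1 did the reverse. By the smaller of their changes with TMM scaling the genes raised most in both were Cox8a, Cox6b1, Ndufaf3, Cox7a2, Cox7a2l and Ndufaf2. Cox6b1 was 4.32 to 4.59 UMIs per 10000 and then 6.88 and 7.31 in control tumours, and 3.77 to 4.84 and then 5.47 to 6.14 in B2m-null tumours (log2 changes 0.80 and 0.60, SE 0.11 and 0.09, adjusted p = 8.04e-05 and 0.000111). In each genotype the groups did not overlap. Cox7a2 rose by 0.86 and 0.54, and Cox7a2l, a factor that joins complexes III and IV, by 0.73 and 0.54. The complex I assembly factors Ndufaf3 and Ndufaf2 rose by 0.53 and 0.74 in control tumours and by 0.58 and 0.53 in B2m-null tumours. With total-count scaling Ndufaf2 lost its call in B2m-null tumours (0.32, adjusted p = 0.0576), and the other 5 of these 6 were among the 11.

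**Figure D3:**
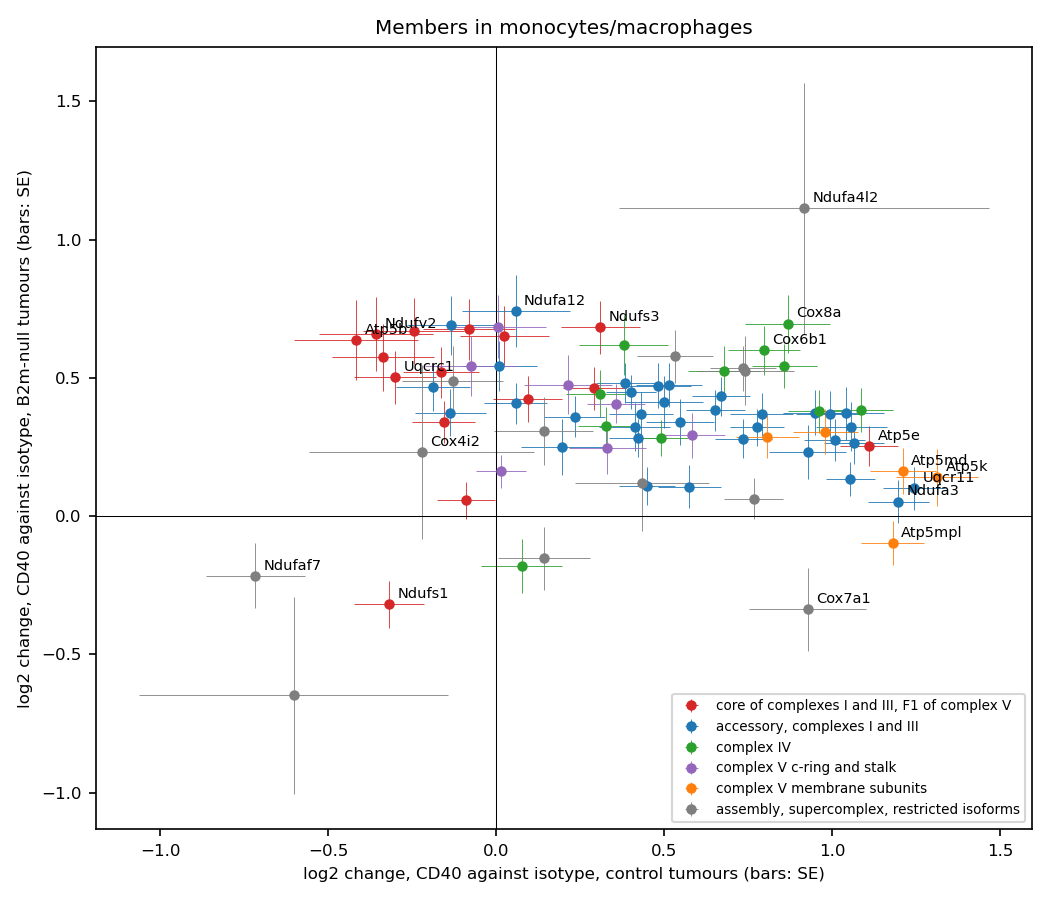
Log2 change of each tested member in monocytes/macrophages under CD40 agonist against isotype, in control tumours (x axis) and B2m-null tumours (y axis), with bars for the standard errors. Most points lie above 0 on both axes; Atp5k, Uqcr11 and Ndufa3 lie far to the right at 1.20 to 1.31, and Atp5b and Ndufv2 lie left of 0 with 0.64 and 0.66 on the y axis.

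The log2 change under CD40 agonist differed between the tumour genotypes for 42 of 85 members in monocytes/macrophages by the interaction term of the same fit. It was larger in B2m-null tumours for 17 and smaller for 25, against 8.89% and 8.95% of all genes tested. Larger and smaller are meant with the sign here and below, so changes in opposite directions are included. All 5 membrane subunits of ATP synthase had the smaller change in B2m-null tumours (median -1.05), led by Atp5mpl (-1.28, SE 0.12, adjusted p = 1.75e-05) and Atp5k (-1.17, SE 0.16, adjusted p = 0.000455). So did 4 of 5 accessory subunits of complex III, with Uqcr11 at -1.14 (SE 0.12, adjusted p = 2.87e-05). The 3 core subunits of complex III among the members had the larger change in B2m-null tumours (median 0.68). So did 3 of 7 core subunits of complex I and 3 of 5 subunits of the F1 head. By transcript length, 0 of 25 members under 600 bases had a larger and 17 a smaller change. Over 1000 bases these were 13 and 3 of 31. Other genes under 600 bases had 8 larger and 71 smaller of 307 (median -0.36). Those of 600 to 1000 bases had 129 and 44 of 735 (0.21), and longer ones 920 and 940 of 10948 (-0.02). The parts of role and of length were not tested. Fits without either control CD40 mouse gave 22 or 23 calls in place of 42, and with pools as the unit there were 7.

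Between the tumour genotypes under isotype, 8 members were higher and 11 lower in the monocytes/macrophages of B2m-null tumours, against 3.29% and 4.79% of all genes tested. Atp5mpl was 2.68 to 3.28 UMIs per 10000 in control tumours and 4.26, 5.05, 4.56, 4.60 and 4.09 in B2m-null tumours (log2 difference 0.52, SE 0.07, adjusted p = 0.00191), and the groups did not overlap. Atp5k (0.42), Ndufa3 (0.41) and Uqcr11 (0.39) were also higher, all 8 that were higher having transcripts under 600 bases, and Ndufs8, Ndufs4, Atp5g1 and Ndufa8 were lower by 0.41 to 0.48. The lung and smooth muscle isoform Cox4i2, at 0.040 to 0.110 in control and 0.0288 to 0.0542 in B2m-null tumours, was lower by a log2 difference of -1.17 (adjusted p = 0.0197), with overlapping groups. The count of 19 depended on single libraries: it was 0 without the first control isotype pool, 3 without the first B2m-null isotype pool and 30 without the second. Without single mice the count went down to 10 or 12 (first and second mouse of the first B2m-null pool) and to 10 or 8 (mice 1 and 3 of the first control pool). With pools as the unit 1 was called.

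Under CD40 agonist 7 members were higher and 28 lower in the monocytes/macrophages of B2m-null tumours than in those of control tumours, against 4.26% and 5.08% of all genes tested. Uqcr11 was 5.81 and 6.00 UMIs per 10000 in control tumours and 3.72, 3.87, 3.17 and 3.19 in B2m-null tumours (log2 difference -0.75, SE 0.10, adjusted p = 0.000451). Atp5b was 3.06 and 3.13 in control tumours and 4.46 to 5.27 in B2m-null tumours (0.64, SE 0.19, adjusted p = 0.0449). In both genes the groups lay apart, in opposite order. Atp5k, Atp5mpl and Ndufa3 were lower by 0.73 to 0.75, and Ndufv2, Atp5c1, Uqcrc1 and Ndufa9 were higher by 0.42 to 0.61. The 35 calls went down to 4 and 18 without the second or the first control CD40 mouse, to 20 without the second lane of their pool, to 14 and 22 without the second B2m-null CD40 pool or its second mouse, and to 0 with pools as the unit.

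In the monocytes/macrophages of control tumours the members that rose most under CD40 agonist had transcripts under 600 bases. The medians of the members were also higher under 600 than over 1000 bases in the other classes of control tumours. They were 0.70 and 0.06 in cDC, 0.56 and -0.385 in CD8 T cells, and 0.76 and -0.05 in NK cells. The largest single rises there were not all of short transcripts. The largest rises in the cDC of control tumours were those of Ndufa5 (875 bases) and Ndufaf4 (3632 bases), and in NK cells Ndufv3 (1582 bases) came second. By the principal transcript of each gene, 28 members are under 600 bases long, 29 are 600 to 1000 and 31 are over 1000. In the monocytes/macrophages of control tumours 23 of 25 tested members under 600 bases rose (median log2 change 0.96), 20 of 29 of middle length (0.41) and 7 of 31 over 1000 bases (0.01). The 307 other genes under 600 bases that were tested had a median of 0.50, with 126 higher and 14 lower. Other genes of the longer classes had medians of 0.14 (166 higher and 42 lower of 735) and -0.03 (941 higher and 1111 lower of 10948). In B2m-null tumours the order was turned for the members, with medians of 0.28, 0.37 and 0.47 from short to long, and other genes had medians of 0.17, 0.36 and -0.05.

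The ratio of the summed UMIs of members under 600 bases to those over 1000 bases showed the same by mouse. In monocytes/macrophages it was 2.13 and 2.17 in the control CD40 mice, against 1.27 to 1.36 under control isotype, 1.51 to 1.70 under B2m-null isotype and 1.45 to 1.55 under B2m-null CD40. The control CD40 mice were also above all mice of the other groups in CD8 T cells (2.29 and 2.37, others 1.26 to 1.82) and cDC (2.07 and 2.15, others 1.28 to 1.93). In NK cells they reached 2.38 and 2.41, and 1 B2m-null isotype mouse reached 2.46. The lanes of the control CD40 pool gave 2.06 and 2.27 in monocytes/macrophages, and the other 6 lanes gave 1.32 to 1.60. Transcript length also divided the members between the isotype groups, where in the monocytes/macrophages of B2m-null tumours 8 of 25 members under 600 bases were higher and 0 lower than in control tumours, and 0 of the longer members were higher and 11 lower. Of the 307 other genes under 600 bases 21 were higher and 5 lower. Other genes of 600 to 1000 bases had 4 higher and 88 lower of 735, and those over 1000 bases 364 higher and 474 lower of 10948. The part of length in the changes of the short members was not tested.

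**Figure D4:**
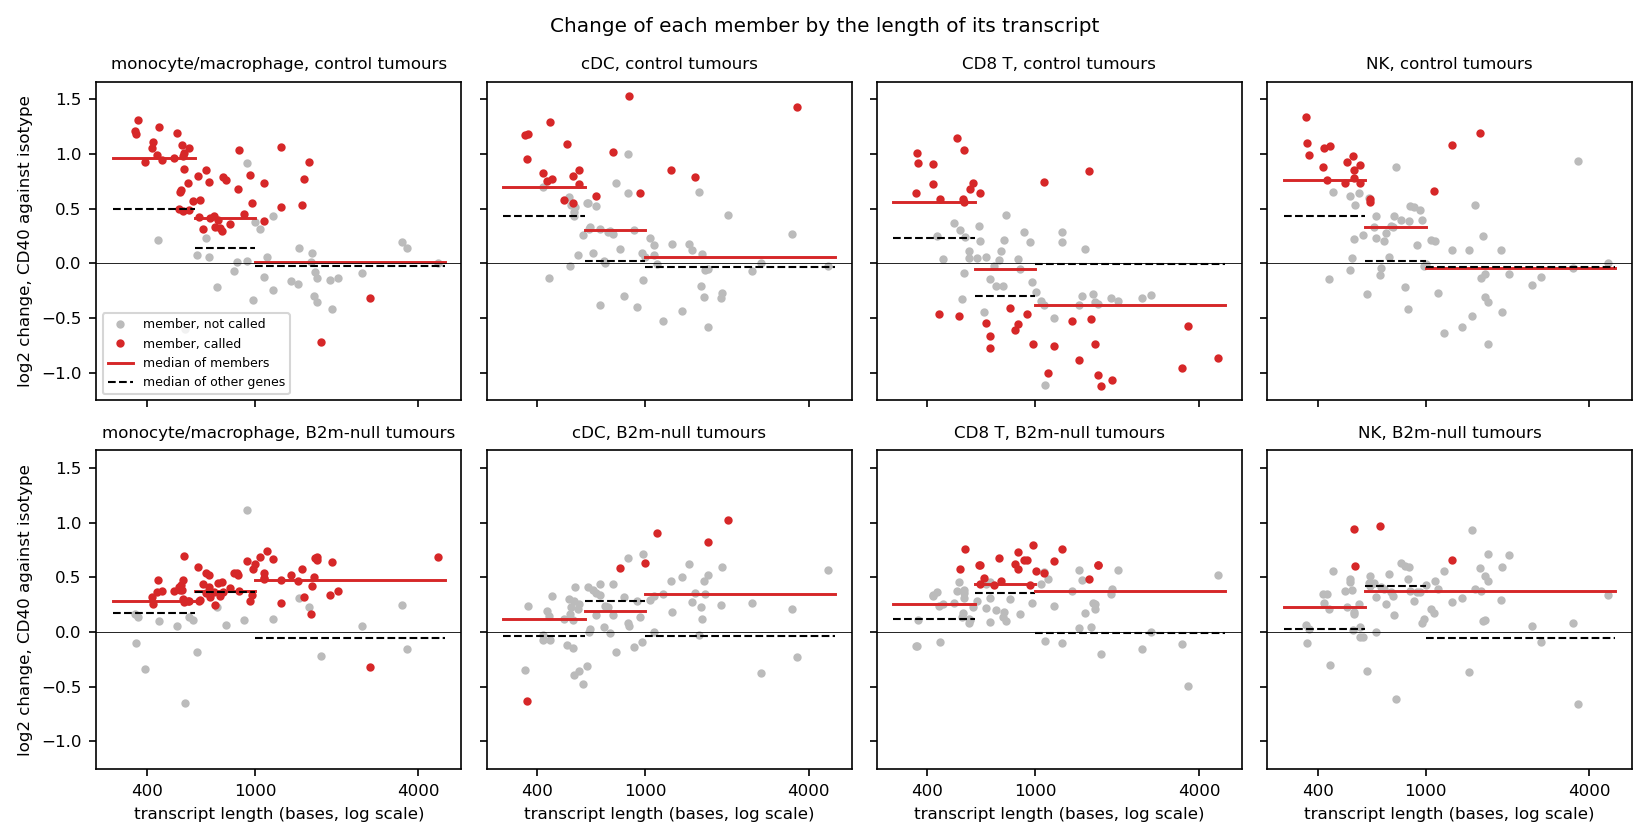
Log2 change of each tested member under CD40 agonist against isotype (y axis) by the length of its principal transcript in bases (log x axis), for the 4 classes and both tumour genotypes; red points are called, grey points are not, and lines are medians of the members (red) and of other genes (dashed) by length class. In control tumours short members lie high, with medians under 600 bases of 0.96, 0.70, 0.56 and 0.76 in monocytes/macrophages, cDC, CD8 T cells and NK cells; in B2m-null tumours these medians are 0.28, 0.12, 0.25 and 0.22.

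Members with and without a promoter motif were counted apart in monocytes/macrophages. Of the 32 tested members with any of the 3 motifs in the 300-base window, 20 rose in control tumours with a median of 0.49, and of 38 without one 23 rose and 1 fell with a median of 0.41. In B2m-null tumours 23 of 32 with a motif rose (median 0.30) and 31 of 38 without one (median 0.43). In control tumours the medians with and without a motif were 0.49 and 0.17 in cDC (10 of 30 and 6 of 34 raised), 0.55 and 0.15 in NK cells (11 of 30 and 5 of 34) and 0.08 and -0.23 in CD8 T cells. In B2m-null tumours they were 0.23 and 0.28, 0.24 and 0.40, and 0.30 and 0.47. The differences between these medians were not tested.

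In CD8 T cells some members rose and others fell under CD40 agonist in control tumours, as did other genes, and those called in B2m-null tumours rose. In control tumours 15 of 81 tested members rose and 22 fell, against 15.8% and 17.6% of the 9680 genes tested, with a median of -0.17 for the members and -0.02 for all genes, so the share that rose was near that of all genes. In B2m-null tumours 23 rose and 0 fell, against 6.34% and 4.44%, with a median of 0.33 for the members and 0.01 for all genes. These 23 calls became 0 with a limit of 5% mitochondrial UMIs, 5 with stricter gates and 0 with pools as the unit, and the 37 calls in control tumours became 4 with pools as the unit. At an unadjusted p under 0.05 the number lower in B2m-null tumours was 0 as well, and DESeq2 called 0. Total-count scaling moved the median of all genes in B2m-null tumours to -0.16 and gave 9 members higher, with 28.7% in place of 58.8% of all calls higher. The summed level in CD8 T cells overlapped between treatments in control tumours, at 227.9 to 242.7 UMIs per 10000 under isotype and 259.3 and 238.2 under CD40 agonist. In B2m-null tumours it was 205.8 to 242.4 under isotype and 262.9, 262.9, 236.1 and 246.8 under CD40 agonist, overlapping by 1 mouse.

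By role, 4 of 5 membrane subunits of ATP synthase (median 0.64) and 2 of 5 accessory subunits of complex III rose in the CD8 T cells of control tumours. Uqcrh was 7.23, 6.66, 7.64, 8.87 and 8.19 UMIs per 10000 under isotype and 14.8 and 16.1 under CD40 agonist (log2 change 1.04, SE 0.15, adjusted p = 3.93e-05). The CD40 mice were far above the isotype mice. Ndufa3 rose by 1.15, Atp5mpl by 1.01 and Atp5k by 0.92. Of the 29 accessory subunits of complex I 5 rose and 7 fell (median -0.02), of the 11 complex IV subunits 1 rose, and Cox7a2l rose (0.74). The falls were also in 3 of 7 core subunits and 3 of 8 assembly factors of complex I, 1 of 3 core subunits of complex III, 3 of 5 subunits of the F1 head (1 rose), 2 of 3 c-ring genes and 3 of 4 stalk subunits (1 rose). Atp5b was 5.10 to 6.58 under isotype and 3.02 and 2.48 under CD40 agonist (-1.07, SE 0.23, adjusted p = 0.00129). Ndufv2, an iron-sulphur core subunit of complex I, was 1.12 to 1.34 and then 0.595 and 0.570 (-1.02, SE 0.16, adjusted p = 7.80e-05). In both genes the CD40 mice lay below every isotype mouse. Ndufaf7, Ndufa12 and Ndufab1 fell by 0.96 to 1.12.

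The rises in the CD8 T cells of B2m-null tumours were in 10 of 29 accessory and 2 of 7 core subunits of complex I, 6 of 11 subunits of complex IV, 2 each of the F1 head and stalk, and 1 membrane subunit of ATP synthase. Ndufs8, a core subunit with iron-sulphur clusters, was 0.641, 0.507, 0.513, 0.703 and 0.564 UMIs per 10000 under isotype and 1.01, 1.06, 0.919 and 0.983 under CD40 agonist (log2 change 0.80, SE 0.17, adjusted p = 0.00414). The CD40 mice stood above all isotype mice. Cox8a was 4.18 to 9.26 and then 9.93 to 11.6 (0.76, SE 0.17, adjusted p = 0.00534), again without overlap. Ndufa13, Ndufa8 and Ndufb10 rose by 0.68 to 0.76. Atp5h, a stalk subunit (0.64 and 0.61), and Ndufv3 (0.84 and 0.49) rose in both genotypes, which was 13.3% of the 15 raised in control tumours and 8.7% of the 23 in B2m-null tumours. Of all tested members 18.5% and 28.4% rose, and over all genes 15.9% and 39.7% of the rises were shared. With total-count scaling Ndufv3 lost its call in B2m-null tumours (0.30, adjusted p = 0.162). Atp5c1, Atp5d, Atp5o, Ndufa8, Ndufs8 and Ndufv2 fell in control tumours and rose in B2m-null tumours. They were 27.3% of the 22 falls, near the 28.4% of all tested members that rose in B2m-null tumours, and 26.1% of the 23 rises. Over all genes 70 had this pattern, which was 4.11% of the 1705 falls and 11.4% of the 614 rises, where 6.34% rose in B2m-null tumours. Total-count scaling gave 3 such members, Atp5d, Ndufa8 and Ndufs8.

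The interaction term was called for 23 members in CD8 T cells, 19 with a larger log2 change in B2m-null tumours and 4 with a smaller one, against 5.81% and 3.13% of all genes tested. Total-count scaling made these 15 and 8. The first was Ndufv2 (1.64, SE 0.22, adjusted p = 0.000475), followed by Ndufs8, Ndufa12, Atp5b and Atp5c1 at 1.41 to 1.54. Under CD40 agonist B2m-null tumours had 11 members higher and 4 lower than control tumours, against 3.57% and 1.85%, with Ndufv2 at 1.30 and Uqcrh at -0.58. Under isotype 1 was higher (Atp5mpl, 0.61) and 0 lower, against 0.155% and 0.331%, where 26 were lower at an unadjusted p under 0.05 and DESeq2 called 5.

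Single libraries carried many of these CD8 T calls. In control tumours the 37 calls went down to 16 without the second CD40 mouse and to 14 without the first isotype pool. In B2m-null tumours the 23 went down to 1 without the first isotype pool, 13 without its first mouse, 4 without the second CD40 pool, 12 without its second mouse and 15 without the first control isotype pool, and up to 35 without the second B2m-null isotype pool. The interaction calls went down to 15 and 5 without the first or the second control CD40 mouse and to 7 without the first control isotype pool. The genotype calls under CD40 agonist went down to 2 and 1 without those mice, to 8 without that pool and to 4 without the second mouse of the second B2m-null CD40 pool. The count of 1 under isotype became 0 without any 1 of several mice or pools of either isotype group, and 14 without the second B2m-null isotype pool or its first mouse. The B2m-null isotype mice gave 23 to 298 CD8 T cells each. The genes used as mature DC markers (Ccr7, Fscn1, Ccl22 and Cacnb3) summed to 2.15 to 15.1 UMIs per 10000 in these CD8 T cells. They summed to 1.56 to 3.00 under control isotype and 0.149 to 0.503 in the CD40 groups. The sum does not tell transcripts of DC from those of the T cells themselves. The cell cycle genes summed to 10.97 and 17.0 in the control CD40 mice, 27.2 to 31.3 under control isotype, 25.4 to 31.5 under B2m-null isotype and 12.1 to 38.1 under B2m-null CD40. The part of these marker transcripts and of cycling in the changes was not tested.

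In cDC 20 of 76 tested members rose under CD40 agonist in control tumours and 0 fell, against 3.61% and 1.28% of the 6588 genes tested, with a median of 0.30 for the members and -0.02 for all genes. No member was lower at an unadjusted p under 0.05 either, and DESeq2 called 0 lower. The summed level in cDC was 194.4 to 205.8 UMIs per 10000 under isotype and 260.5 and 254.4 under CD40 agonist, without overlap. All 5 membrane subunits of ATP synthase (median 0.96), 3 accessory subunits of complex III, 4 subunits of complex IV and 6 accessory subunits of complex I were among the 20. Ndufa5 was 0.344, 0.757, 0.600, 0.571 and 0.658 under isotype and 1.80 and 1.73 under CD40 agonist (log2 change 1.53, SE 0.26, adjusted p = 0.00308). Uqcr11 was 1.501 to 1.66 and then 3.14 and 4.62 (1.29, SE 0.18, adjusted p = 0.00119). In both the CD40 mice lay above all isotype mice. Atp5k and Atp5md rose by 1.18 and the assembly factor Ndufaf4 by 1.43.

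In the cDC of B2m-null tumours 5 members rose and 1 fell, against 2.64% and 2.05% of all genes, with a median of 0.23 for the members and -0.01 for all genes. The 6 calls became 0 with a limit of 5% mitochondrial UMIs, with stricter gates and with pools as the unit, and the 20 in control tumours became 3 with pools as the unit. The summed level was 188.2 to 216.3 UMIs per 10000 under isotype and 193.5, 223.2, 229.3 and 227.4 under CD40 agonist, and the groups overlapped. Ndufa10, a supernumerary subunit of complex I, was 0.416 to 0.757 UMIs per 10000 under isotype and 0.774, 1.41, 1.42 and 1.01 under CD40 agonist (log2 change 1.03, SE 0.24, adjusted p = 0.0163). All CD40 mice were above the isotype mice, the lowest by little. Ndufa12, Ndufs4, Cox7b and Atp5j rose by 0.59 to 0.91. Atp5mpl fell, from 3.197 to 4.78 down to 2.01 to 2.95 (-0.63, SE 0.18, adjusted p = 0.0466), and it rose in control tumours. Total-count scaling gave 3 higher and 2 lower here, with 43.3% in place of 56.3% of all calls higher.

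The interaction term in cDC was called for 0 members with a larger and 7 with a smaller log2 change in B2m-null tumours, against 1.15% and 1.2% of all genes. At an unadjusted p under 0.05 there were 13 with a larger change, and DESeq2 called 0. Atp5mpl (-1.58, SE 0.27, adjusted p = 0.00365), Atp5md (-1.53), Ndufa5 (-1.48), Uqcr11 (-1.36) and Ndufa3 (-1.21) were among the 7. Under CD40 agonist B2m-null tumours had 0 members higher and 2 lower (Atp5md at -1.10 and Ndufa2 at -0.90), against 0.288% and 0.228%, with 3 higher at an unadjusted p under 0.05 and 0 by DESeq2. Under isotype 2 were higher (Atp5mpl at 0.70 and Uqcr11 at 0.61) and 0 lower, against 0.213% and 0.288%, with 5 lower at an unadjusted p under 0.05 and 0 by DESeq2.

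The cDC calls rest on few cells. The CD40 mice gave 27 and 44 cDC in control tumours and 23 to 30 in B2m-null tumours, against 74 to 284 and 48 to 277 under isotype. Without either technical lane of the control CD40 pool there were 2 calls in place of 20 in control tumours, 2 interaction calls in place of 7 and 0 genotype calls under CD40 agonist in place of 2. A mouse with under 20 cells in the remaining lane leaves these fits. As the 2 mice had 27 and 44 cells over both lanes, a lost lane and a lost mouse cannot be told apart here. Without single mice or pools the 20 calls went down to 2 to 13 for the first and second CD40 mouse (2 and 10), the first and second isotype pool (3 and 9) and the first and second mouse of the first isotype pool (12 and 13) and the second of the second (12). Leaving out any single control isotype mouse or either control isotype pool gave 2 or 3 calls in place of 6 in B2m-null tumours, leaving out the first or second mouse of the first B2m-null isotype pool or either mouse of the second B2m-null CD40 pool gave 2, leaving out the second mouse of the first B2m-null CD40 pool gave 1, leaving out the second B2m-null CD40 pool or the first B2m-null isotype pool gave 0, and leaving out the second isotype pool gave 12. The 7 interaction calls became 3 and 4 without the second or the first control CD40 mouse, 3 and 4 without the first or the second control isotype pool, and 11 without the second B2m-null isotype pool. The 2 genotype calls under CD40 agonist were also lost without the first control CD40 mouse or the first B2m-null CD40 pool, and those under isotype without any single B2m-null isotype mouse. Markers of mature DC summed to 8.31 to 19.7 UMIs per 10000 in the control CD40 cDC and 20.04 to 28.6 under control isotype, and those of mononuclear phagocytes to 12.3 to 38.6 in the B2m-null CD40 cDC and 5.20 to 10.6 under B2m-null isotype. The summed level of the members in mature DC was 165.6 to 180.6 under control isotype, below every value of cDC1 and cDC2, and the part of the mix of cDC in the changes was not tested.

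In NK cells 19 of 76 tested members rose under CD40 agonist in control tumours and 0 fell, against 2.4% and 1.56% of the 5331 genes tested, with a median of 0.30 for the members and -0.02 for all genes. At an unadjusted p under 0.05 4 were lower, and DESeq2 called 0 lower. The summed level was 189.2 to 199.9 UMIs per 10000 under isotype and 253.8 and 243.2 under CD40 agonist, without overlap. The membrane subunits of ATP synthase led again, with 4 of them raised and a median of 0.99. Atp5md was 1.57, 1.65, 1.44, 1.22 and 1.10 under isotype and 3.83 and 2.85 under CD40 agonist (log2 change 1.34, SE 0.19, adjusted p = 3.85e-05). Uqcr11 was 1.41 to 1.82 and then 2.87 and 3.80 (1.07, SE 0.19, adjusted p = 0.000749). Neither overlapped between treatments. Ndufv3, Atp5mpl and Ndufc1 rose by 1.08 to 1.19.

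In the NK cells of B2m-null tumours 4 members rose and 0 fell, against 3.36% and 1.67%, with a median of 0.35 for the members and -0.01 for all genes. None was lower at an unadjusted p under 0.05 or by DESeq2. The 4 calls became 0 with a limit of 5% mitochondrial UMIs and with pools as the unit, and the 19 in control tumours became 1 with pools as the unit. The summed level was 184.6, 204.5, 209.7 and 193.6 UMIs per 10000 under isotype and 236.4, 245.8, 206.3 and 227.1 under CD40 agonist, and the groups overlapped. Ndufb8, an accessory subunit of complex I, was 0.809, 0.5681, 1.57 and 1.44 UMIs per 10000 under isotype and 3.34, 1.91, 2.04 and 2.31 under CD40 agonist (log2 change 0.97, SE 0.24, adjusted p = 0.0168). Cox8a was 5.11 to 9.46 and then 9.59 to 12.0 (0.61, SE 0.17, adjusted p = 0.0304). In both genes the CD40 mice were above all isotype mice. Ndufa11 and Ndufa13 rose by 0.94 and 0.66. Total-count scaling moved the median of all genes to -0.15 and gave 1 member higher, with 33.8% in place of 66.8% of all calls higher, and in control tumours it gave 13, with 45% in place of 60.7%.

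The interaction term in NK cells was called for 1 member with a larger (Atp5c1, the gamma subunit of the F1 head, 1.20) and 3 with a smaller log2 change in B2m-null tumours (Uqcr11 at -1.37, Atp5md at -1.27 and Atp5mpl at -1.21), against 0.694% and 0.431% of all genes. Under CD40 agonist Atp5c1 (0.90) and Atp5b (0.87) were higher and Uqcr11 (-0.91) and Atp5md (-0.89) lower in B2m-null tumours, against 0.469% and 0.431%. With total-count scaling Atp5c1 lost its call in this comparison (0.86, adjusted p = 0.0534). Under isotype 0 were higher and 0 lower, against 0.0563% and 0.0188%, with 5 higher and 3 lower at an unadjusted p under 0.05 and 0 by DESeq2. The 19 calls in control tumours went down to 3 and 10 without the first or the second CD40 mouse, to 11 without the second lane of their pool and to 5 without the first isotype pool. The 4 calls in B2m-null tumours became 0 without the first isotype pool and 7 without the first mouse of the second CD40 pool. The 4 genotype calls under CD40 agonist became 0 without either control CD40 mouse, the second lane of their pool or the second mouse of the second B2m-null CD40 pool. The 4 interaction calls became 1 without either control CD40 mouse or the first control isotype pool, and 8 without the second B2m-null isotype pool.

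**Figure D5:**
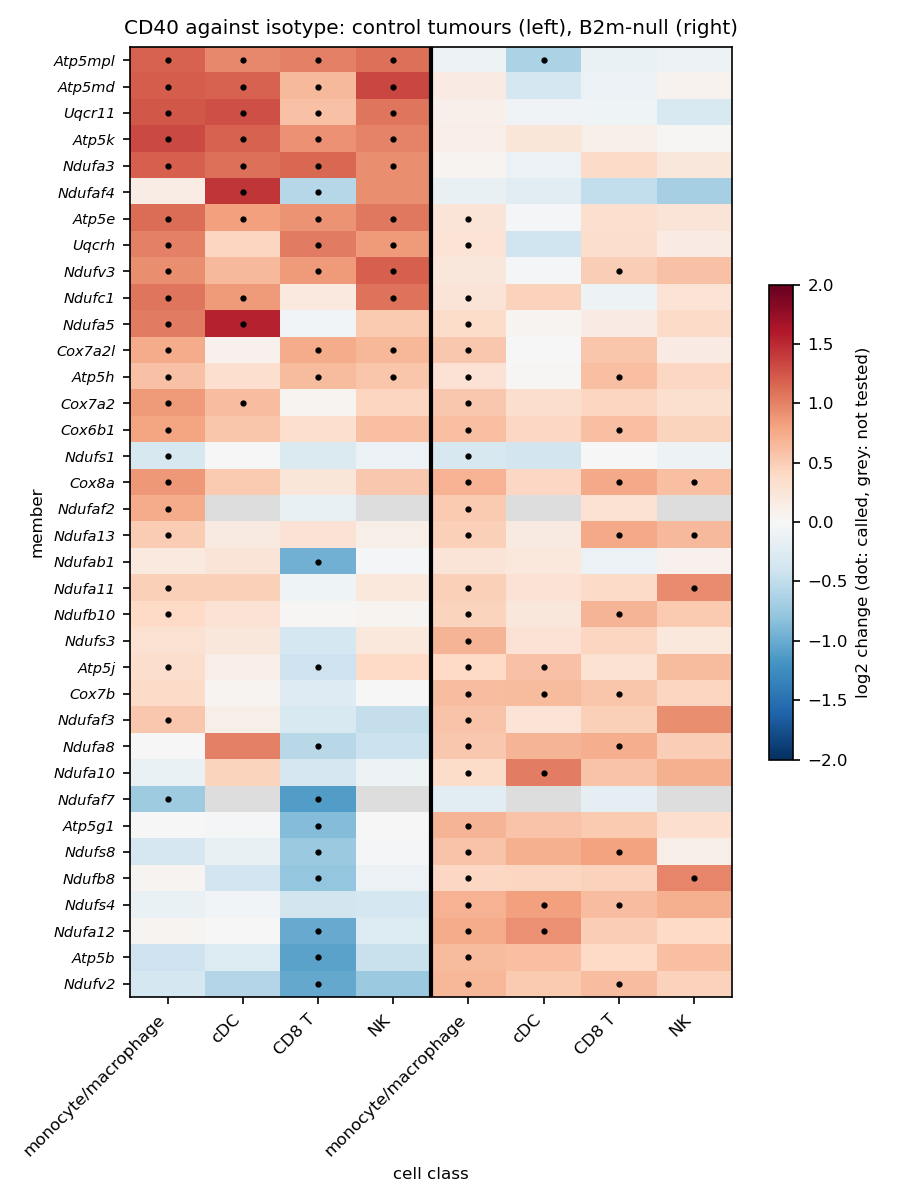
Log2 change of 36 members under CD40 agonist against isotype (colour) in the 4 classes, control tumours on the left and B2m-null tumours on the right; dots mark changes called at an adjusted p under 0.05 and grey marks genes not tested in that class. The membrane subunits of ATP synthase (Atp5k, Atp5md, Atp5mpl) and Uqcr11 are high in control tumours in the 4 classes, and Atp5b and Ndufv2 are below 0 in the CD8 T cells of control tumours, at -1.07 and -1.02.

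Other mitochondrial and metabolic genes were set beside the members in monocytes/macrophages with TMM scaling, by their calls and medians in control and then in B2m-null tumours. Of all genes tested 10.6% were higher and 9.68% lower in control tumours, and 18.1% and 18.8% in B2m-null tumours. The 13 protein-coding genes of the mitochondrial genome, the partners of the members in the same complexes, had 2 higher and 3 lower with a median log2 change of -0.19, then 3 higher and 4 lower with -0.11. Among them mt-Co1 rose (0.85) and mt-Nd2 (-0.84) and mt-Atp6 (-0.80) fell in control tumours. Assembly factors of complexes III and IV had 11 of 25 higher and 1 lower, then 12 higher and 0 lower, with medians of 0.26 in both, led by the copper chaperone Cox17 (1.27 in control tumours). The 8 succinate dehydrogenase genes were the complex II subunits Sdha, Sdhb, Sdhc and Sdhd and the assembly factors Sdhaf1, Sdhaf2, Sdhaf3 and Sdhaf4. Of these 1 rose and 1 fell, then 2 rose. Cytochromes c and c1 (Cycs and Cyc1) rose in B2m-null tumours, at 0.45 and 0.61, and did not pass the test in control tumours. The citrate cycle had 0 of 14 higher and 3 lower (median -0.24), then 5 higher and 2 lower (0.11), with Fh1 (-0.78) and Idh2 (-0.74) among those that fell in control tumours.

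The mitochondrial ribosome had 11 of 78 genes higher and 3 lower in the monocytes/macrophages of control tumours (median 0.02), against 10.6% and 9.68% of all genes tested. In those of B2m-null tumours it had 60 higher and 0 lower (0.40), against 18.1% and 18.8%. The symbols starting Rpl or Rps, mostly cytosolic ribosomal proteins with a few kinases of the Rps6ka names, had 30 of 87 higher and 5 lower (0.15), then 60 higher and 1 lower (0.39). Glycolysis had 2 of 15 higher, near the 10.6% of all genes tested, then 12 higher (0.59) against 18.1%, with Aldoa (1.01) and Gapdh (0.90) in B2m-null tumours. Regulators of mitochondrial biogenesis had 0 of 13 higher and 3 lower (Myc at -0.52, Tfam at -0.41 and Gabpa at -0.40), then 1 higher (Ppargc1b, 0.82) and 2 lower (Ppargc1a at -1.89 and Gabpa at -0.41). In the CD8 T cells of control tumours the mitochondrial ribosome had 2 of 78 higher and 47 lower (median -0.72) and the cell cycle genes 0 of 15 higher and 13 lower (-1.34). Of all 9680 genes tested there, 15.8% were higher and 17.6% lower.

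Across the 10 classes measured under control isotype, the members with the highest mean level were Cox4i1 (10.3 UMIs per 10000), Cox8a (8.09), Cox5a (7.70), Atp5h (7.52) and Atp5l (6.73). The 3' method counts molecules by their tail, so these levels are not scaled by length. Cox4i1, at 4.73% of all UMIs of the members, ran only from 9.37 in regulatory T cells to 11.6 in plasmacytoid dendritic cells. By the difference in UMIs between the highest and lowest class, Cox5a ranged most, at 10.7 in macrophages and 5.30 in NK cells. Uqcrh went the other way, with 8.36 in NK cells and 4.37 in macrophages. Ndufa4 was highest in cDC1 (5.97) and lowest in mature DC (2.53), and the c-ring genes Atp5g2 and Atp5g3 were highest in CD8 T cells, at 7.30 and 4.69, and lowest in monocytes (3.93) and plasmacytoid dendritic cells (1.79). These are means over the mice of 1 group, and the differences between classes were not tested.

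The tissue-restricted isoforms were rare, and 3 of them lay mostly in macrophages, which were 25739 of the 47497 assigned gated cells. Of 224648567 UMIs in assigned gated cells, Cox7a1, the heart and muscle form of Cox7a, had 1825, of which 1654 were in macrophages. Cox4i2 had 1025 (964 in macrophages), Ndufa4l2, which responds to hypoxia, 430 (376), and Cox6b2, the testis form, 421 (186). Cox8b had 1, and Cox7b2 and Cox8c had 0, where a count of 0 allows up to 3. In monocytes/macrophages Cox7a1 was 0.0695 to 0.0780 UMIs per 10000 under control isotype, 0.139 and 0.121 under control CD40, 0.0997 to 0.132 under B2m-null isotype and 0.0526 to 0.108 under B2m-null CD40. Its log2 change under CD40 agonist was lower, with the sign, in B2m-null than in control tumours by the interaction term (-1.26, SE 0.23, adjusted p = 0.00288). The control groups did not overlap, and the B2m-null groups overlapped.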

How the data were processed

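Droplet 3' single-cell RNA libraries of CD45+ tumour cells and their hashtag libraries were deposited as filtered matrices of UMI counts per gene and barcode, which the authors made with Cell Ranger 3.0.0 and bcl2fastq 2.20.0.422 on mm10, per the submitters' processing notes. The deposited counts were used without change. A barcode was assigned to a mouse from its hashtag counts (minimum 20, posterior 0.9, doublets at 2.5 SD). This left 20943 barcodes unassigned and removed 7624 as doublets. Doublets within a mouse cannot be found this way. Unassigned barcodes were spread unevenly, at 47.9% (B2m-null isotype, pool 1), 43.6% (B2m-null CD40, pool 1) and 26.0% (control isotype, pool 1). Every other lane had 3.30% to 12.9%. The part of this uneven loss in the calls was not tested. Cells in which 200 genes or more were detected, and 10% or less of the UMIs were mitochondrial, were put into classes by UMI minimums on marker lists. These minimums were set after seeing the data, and they also remove cells with markers of another class (CD8 or Flt3 and Zbtb46 transcripts from monocytes/macrophages, for example), so the absence of those markers is by construction. The labels name 3 hashtags a pool, and 2 or 3 were found.

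Counts were summed per mouse and class (at least 20 cells; the technical lanes of 1 pool summed) and tested with edgeR 4.0.16 in R 4.3.3 (TMM, filterByExpr, quasi-likelihood fit over all 4 groups, Benjamini-Hochberg over all genes, called at an adjusted p under 0.05). Levels are UMIs per 10000 UMIs of a mouse and class, and log2 changes come from the fit. Counts were simulated with 200 changed genes in the B2m-null CD40 comparison. There 2-fold changes were found for 81%, 29%, 45% and 42% of genes in monocytes/macrophages, cDC, CD8 T and NK cells, and 4-fold changes for 94%, 70%, 81% and 79%. The simulated mice were independent, without a pool effect, and the changed genes were drawn at random from all genes tested. The rates therefore do not cover the members alone, effects of pools or the control CD40 arm of 2 mice. Named members were up to 5 rises and 5 falls a class and comparison by log2 change, up to 6 called in both CD40 comparisons, 5 by level and 5 by range across classes, the tissue-restricted isoforms and up to 5 interaction calls, and per-sample values and further changes are given for others of the same role, chosen after their values were seen. From the lists up to 3 genes each were named. Members, lists and tests were chosen with earlier results of these data known. Transcript lengths are those of GENCODE principal transcripts. Alternatives were DESeq2 1.42.0, RLE scaling, other mitochondrial limits, no filter on low counts, pools as the unit, a replicate block, stricter gates, leaving out each mouse and pool and, chosen after seeing the data, total-count scaling, macrophages without monocytes and each control CD40 lane left out. Tables were made with Python 3.11.15, numpy 2.4.6, scipy 1.17.1, pandas 2.3.3 and scikit-learn 1.9.0, and figures with matplotlib 3.10.9.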

Additional observations from a re-analysis of the deposited data

Results flagged for a closer look

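The summed level of the members in the cDC of 1 B2m-null CD40 mouse (pool 1, mouse 1) was 193 UMIs per 10000, far below the other 3 mice of its group; 12 groups were tested for such values, of which chance flags about 1 in 20.

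The response to CD40 agonist differed between tumour genotypes, by the interaction term, for 42 members in monocytes/macrophages, 7 in cDC, 23 in CD8 T cells and 4 in NK cells. In monocytes/macrophages the differences of the log2 changes (B2m-null minus control) were -1.28 for Atp5mpl, -1.26 for Cox7a1, -1.17 for Atp5k, -1.14 for Uqcr11 and for Ndufa3, -1.05 for Atp5md, 0.82 for Ndufs4 and 0.68 for Ndufa12 and for Atp5g1. In cDC they were -1.58 for Atp5mpl, -1.53 for Atp5md, -1.48 for Ndufa5, -1.36 for Uqcr11 and -1.21 for Ndufa3. In CD8 T cells they were -1.14 for Atp5mpl, -0.81 for Atp5k, -0.68 for Uqcrh, 1.29 for Ndufa8, 1.41 for Atp5c1, 1.46 for Atp5b, 1.49 for Ndufa12, 1.54 for Ndufs8 and 1.64 for Ndufv2. In NK cells they were -1.37 for Uqcr11, -1.27 for Atp5md, -1.21 for Atp5mpl and 1.20 for Atp5c1. The negative values given here belong to members with transcripts under 600 bases, except Ndufa5 in cDC (875 bases). The control CD40 pool has the highest ratio of short to long members, and the part of that ratio in these differences was not tested.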

How the results depend on the processing

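RLE scaling and macrophages without monocytes kept every count of called members within 1.5 times its value. No called change named by the rule on the largest, shared or interaction calls turned its direction under any alternative run. These changes were picked as called and large, so a turn was unlikely from the start. The direction of the other changes given above was not checked in this way. The log2 ratio of the summed level was near 0 and turned for the CD40 genotype comparison of CD8 T cells (0.02) to as low as -0.0399 without control CD40 mouse 2, and for the isotype genotype comparison of NK cells (0.03) to -0.0002 without the first mouse of the second B2m-null isotype pool. Medians by role turned under total-count scaling, as given above. DESeq2 turned the balance of calls in the isotype genotype comparison of CD8 T cells, from 1 higher and 0 lower to 1 higher and 5 lower. DESeq2 called 4 (isotype genotype comparison), 7 (CD40 genotype comparison) and 12 (interaction) members in cDC, 6 and 26 in the same genotype comparisons in CD8 T cells, and 11 (control CD40), 7 (B2m-null CD40) and 8 (interaction) in NK cells. Total-count scaling called 39 in the B2m-null CD40 comparison of monocytes/macrophages, 4 in the CD40 genotype comparison of cDC, 9 in the B2m-null CD40 comparison of CD8 T cells and 1 in that of NK cells. A limit of 20% mitochondrial UMIs gave 3 in the isotype genotype comparison of CD8 T cells. A limit of 5% gave 9 in that comparison of monocytes/macrophages; 0, 0, 1 and 4 in cDC (B2m-null CD40, genotype under isotype, under CD40, interaction); 0, 0 and 6 in CD8 T cells (B2m-null CD40, genotype under isotype, interaction); 0, 1 and 2 in NK cells (B2m-null CD40, genotype under CD40, interaction); and log2 ratios of the summed level in CD8 T cells of 0.11 (B2m-null CD40) and -0.022 (genotype under isotype). Without a filter on low counts, 10, 3 and 1 were called in cDC (control CD40, B2m-null CD40, genotype under isotype), 7 and 9 in the genotype comparisons of CD8 T cells, and 2 each in the B2m-null CD40 and CD40 genotype comparisons of NK cells. With pools as the unit, which leaves 1 sample in the control CD40 arm, 36, 1, 0 and 7 were called in monocytes/macrophages (B2m-null CD40, the genotype comparisons, interaction), 3 in cDC, 4 in CD8 T cells and 1 in NK cells for control CD40, and 0 in their other comparisons, with a log2 ratio of -0.020 for the summed level of CD8 T cells in the isotype genotype comparison when unassigned cells were added as well. Stricter gates gave 0, 0 and 4 in cDC (B2m-null CD40, genotype under CD40, interaction), 5 and 0 in CD8 T cells (B2m-null CD40, genotype under isotype) and 0 in NK cells (genotype under CD40). As the mean of the cells' own levels, the log2 ratio in control tumours was 0.14 in CD8 T and 0.40 in NK cells. The causes of these differences were not tested.

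Mice that share a replicate number did not deviate together in every pair (correlations of -0.04 to 0.184), so the numbers were not taken to pair them. A fit with the replicate block gave 5 in the isotype genotype comparison of CD8 T cells and 9 interaction calls in NK cells, and it changed no other count by over 1.5 times.

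Leaving out single mice, pools or lanes gave these lowest and highest counts of called members. In monocytes/macrophages they were 34 and 57 (control CD40), 51 and 66 (B2m-null CD40), 0 and 30 (genotype under isotype), 4 and 44 (genotype under CD40) and 22 and 48 (interaction). In cDC, in the same order, they were 2 and 22, 0 and 12, 0 and 2, 0 and 3, and 2 and 11. In CD8 T cells they were 14 and 42, 1 and 35, 0 and 14, 1 and 21, and 5 and 32. In NK cells they were 3 and 21, 0 and 7, 0 and 0, 0 and 5, and 1 and 8. The log2 ratio of the summed level in the CD8 T cells of control tumours was 0.0092 to 0.13. The CD40 groups held 23 to 44 cDC and 44 to 217 NK cells a mouse.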

Other observations

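Cells outside the compared classes gave these summed levels of the 88 genes. Melanoma-gated cells of 1 control CD40 mouse (28 cells) reached 502.1 UMIs per 10000, the highest value of any class and mouse. CD4 T cells were at 190.8 to 215.1 in 4 control isotype mice and 254.8 and 254.6 in the control CD40 mice. In B2m-null tumours they were at 213.9 in 1 isotype mouse and 241.8 to 242.8 in 3 CD40 mice. In this class the CD40 mice of both genotypes lay above the isotype mice. Regulatory T cells of B2m-null tumours were at 224.2 in 1 isotype mouse and 224.4 in 1 CD40 mouse. B cells averaged 173.7 (1 mouse) under control isotype and 205.5 (2 mice) under control CD40. In B2m-null tumours they averaged 181.2 (2 mice) and 194.1 (3 mice), with overlap. Mature DC, part of the cDC, averaged 191.4 in 5 B2m-null isotype mice, and 1 CD40 mouse was at 167.9. None of these differences was tested. In the monocytes/macrophages of control tumours the mitochondrially encoded genes summed to 396 to 503 UMIs per 10000 in the isotype mice and 401 to 452 in the CD40 mice, which overlap, and the cytosolic ribosome to 1005 to 1096 and 1166 to 1190, which do not.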
